A study of Mus musculus with 106 samples.

Results

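The Foxa2 sites described here were the peaks of the Foxa2 ChIP-seq list from wild-type (WT) mouse liver after GW3965 that overlapped, by 1 base or more, no peak in any of the other 4 Foxa2 lists: vehicle, T09, GW4064 and the vehicle of the GW4064 experiment. There were 6964 such GW3965-only peaks among the 21245 peaks of the GW3965 list (32.8%), and the 5 Foxa2 lists held 80883 peaks together. Each list holds the chromosome, start and end of a peak and nothing else, so the members were chosen by their place in the genome, and the absence of a peak from a list says that none was called there, not that Foxa2 was absent. For comparison, 14281 GW3965 peaks were shared with at least 1 other Foxa2 list, 3119 of them were in all 5 lists, 12385 T09 peaks were found only with T09 and 10925 GW4064 peaks only with GW4064.

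The series examined how ligands of nuclear receptors act on liver chromatin in WT mice and in mice lacking Foxa2 in liver. The Foxa2 livers were WT, from mice 8 to 12 weeks old, taken 4 h after a ligand or vehicle. The ligand was given by oral gavage per the sample labels, while the text of the series speaks of injection. GW3965 and T09 (T0901317) activate LXR, the oxysterol receptor, and GW4064 activates FXR, the bile acid receptor. The Foxa2 sample with GW3965, that with T09 and that with vehicle were each labelled as 3 replicates held in 1 raw file, and the other 2 Foxa2 groups had 1 sample each, so every group gave 1 list and no test between groups over animals was possible. A percent below is followed by an exact (Clopper-Pearson) 95% binomial interval over peaks, which covers counting error only. Accessibility was measured by ATAC-seq in WT livers of the same age, with 2 samples per arm for GW3965, T09 and their vehicles and 3 per arm for GW4064, and the deposited lists hold regions called in ligand over vehicle, referred to here as gained. The Foxa2-KO lists used beside them came from mice labelled Foxa2loxP/loxP;Alfp.Cre, in which Cre is driven by albumin and alpha-fetoprotein control sequences. The LXR and PPAR livers were from C57BL/6 mice of 3 months and the FXR livers from mice of 8 to 12 weeks, all 4 h after the ligand. The agonist of the LXR samples was labelled GW without a number.

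Foxa2 is a forkhead transcription factor that binds its site in closed chromatin and opens it, and in hepatocytes it takes part in bile acid, lipid and glucose metabolism. LXR pairs with RXR, senses oxysterols, and switches on genes of cholesterol efflux and of fatty acid synthesis. The core site of forkhead factors reads TGTTTAC, or GTAAACA on the other strand, and the GC box GGGCGG, or CCGCCC, is the site of Sp-family factors common in promoters rich in CG dinucleotides.

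Promoters give the only stretches of sequence that could be read under these peaks, and the following were chosen because a peak covered the whole promoter window. In file order, Stk11 (the kinase LKB1), Tor1aip1 (a nuclear envelope protein), Ppara (the fatty acid sensor PPAR alpha) and Mxi1 (an antagonist of Myc) were the first 4 genes whose promoter lay wholly under a GW3965-only peak, and Abcc2, the canalicular export pump of the bile acid list, was chosen from the genes further down after its position was seen. Prlr (the prolactin receptor) and Ngef (a guanine nucleotide exchange factor) are shown for contrast: they were the first 2 genes in file order whose promoter held TGTTTAC and lay wholly under a GW3965 peak found in all 5 lists. Each line gives the 250 bases before the start, 5′ to 3′ on the gene's strand, from RefSeq on GRCm38.p6, at chr10:80115545-80115794 (plus strand) for Stk11, chr1:156036481-156036730 (minus) for Tor1aip1, chr15:85735526-85735775 (plus) for Ppara, chr19:53329445-53329694 (plus) for Mxi1, chr19:43782058-43782307 (plus) for Abcc2, chr15:10223656-10223905 (plus) for Prlr and chr1:87573871-87574120 (minus) for Ngef. Capitals mark TGTTTAC or GGGCGG on either strand, and lower case is all other sequence.
Stk11: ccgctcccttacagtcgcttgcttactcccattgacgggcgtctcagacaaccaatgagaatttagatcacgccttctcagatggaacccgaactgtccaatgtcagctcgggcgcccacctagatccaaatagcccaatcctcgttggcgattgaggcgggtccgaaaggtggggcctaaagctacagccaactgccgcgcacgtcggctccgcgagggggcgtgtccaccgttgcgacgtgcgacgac
Tor1aip1: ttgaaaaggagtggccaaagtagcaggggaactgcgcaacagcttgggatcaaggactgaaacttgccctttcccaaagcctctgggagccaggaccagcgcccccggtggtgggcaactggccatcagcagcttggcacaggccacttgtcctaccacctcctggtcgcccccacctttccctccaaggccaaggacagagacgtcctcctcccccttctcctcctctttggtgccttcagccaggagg
Ppara: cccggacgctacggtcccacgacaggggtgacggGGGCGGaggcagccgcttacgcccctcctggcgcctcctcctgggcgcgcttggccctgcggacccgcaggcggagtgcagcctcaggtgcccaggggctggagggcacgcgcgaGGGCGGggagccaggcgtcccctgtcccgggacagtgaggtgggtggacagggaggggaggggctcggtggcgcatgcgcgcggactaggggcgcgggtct
Mxi1: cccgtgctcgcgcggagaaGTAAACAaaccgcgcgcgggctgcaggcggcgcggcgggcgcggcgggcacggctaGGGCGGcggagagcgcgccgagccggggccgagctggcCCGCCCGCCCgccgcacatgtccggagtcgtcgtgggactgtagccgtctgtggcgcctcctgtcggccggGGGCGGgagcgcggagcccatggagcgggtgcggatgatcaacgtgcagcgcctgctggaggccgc
Abcc2: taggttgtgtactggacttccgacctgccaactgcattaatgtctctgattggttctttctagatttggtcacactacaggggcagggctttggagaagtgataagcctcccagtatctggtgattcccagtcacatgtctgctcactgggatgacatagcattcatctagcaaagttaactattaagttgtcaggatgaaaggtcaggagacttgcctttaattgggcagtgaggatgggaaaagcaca
Prlr: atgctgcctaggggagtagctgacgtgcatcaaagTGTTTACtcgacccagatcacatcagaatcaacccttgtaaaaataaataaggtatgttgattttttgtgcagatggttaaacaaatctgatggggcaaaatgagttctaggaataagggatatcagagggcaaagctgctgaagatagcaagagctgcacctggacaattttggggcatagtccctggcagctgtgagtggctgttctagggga
Ngef: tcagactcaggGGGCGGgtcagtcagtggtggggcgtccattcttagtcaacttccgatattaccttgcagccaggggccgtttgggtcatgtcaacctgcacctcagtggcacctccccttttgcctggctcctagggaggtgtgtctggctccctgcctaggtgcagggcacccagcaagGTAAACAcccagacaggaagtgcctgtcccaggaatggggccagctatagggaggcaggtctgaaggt
Of the 5 promoters under GW3965-only peaks, 1 held the forkhead core in these 250 bases, that of Mxi1, which also held 4 GC boxes and 42 CG dinucleotides. The Ppara stretch held 2 GC boxes and 27 CG dinucleotides, the Stk11 stretch neither motif and 24 CG dinucleotides, and the Abcc2 stretch neither motif and 1 CG dinucleotide. The Prlr and Ngef stretches held 1 forkhead core each, with 2 and 4 CG dinucleotides, and Ngef also held 1 GC box. The 50 bases after the start are not shown, and for Stk11 they brought 1 forkhead core and 1 GC box into the whole window.

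Since Prlr and Ngef were chosen for holding the core, these sequences are illustrations, and the shares come from all promoters that a peak touched. RefSeq promoter windows of 300 bases (250 before and 50 after a start) were at hand for 21263 starts of 17492 protein-coding genes, 81.8% of such genes outside chromosome 18, which the table does not cover. GW3965-only peaks touched 691 of these promoters (3.25%), at 629 genes, and shared GW3965 peaks touched 729, with no promoter touched by both. The forkhead core TGTTTAC, searched on both strands, was in 43 of the 691 promoters, or 6.22% (4.54 to 8.29), against 3.01% of all 21263 promoters. It was in 18.8% (16.0 to 21.8) of the promoters under shared GW3965 peaks and in 32.9% (25.6 to 40.9) of the 155 under peaks found in all 5 lists. T09-only peaks touched 92 promoters, of which 4.35% (1.20 to 10.8) held the core. GW4064-only peaks touched 79, of which 2.53% (0.308 to 8.85) did. Both intervals overlapped that of GW3965-only peaks, so the low share was not particular to them. The second forkhead form TATTTAC was in 2.32% of the promoters under GW3965-only peaks, 10.3% of those under shared peaks and 2.59% of all promoters. The intervals of GW3965-only and shared peaks did not overlap. Where the peak covered the whole window, as for the sequences shown, the core was in 2 of 69 promoters (2.90%) under GW3965-only peaks, 25.0% of 124 under shared peaks and 42.5% of 40 under peaks in all 5 lists.

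The promoters under GW3965-only peaks were rich in CG dinucleotides and GC boxes. Their median was 22 CG dinucleotides per 300 bases (quartiles 14 and 30) and 61.7% G or C, where promoters under shared peaks had a median of 15 and 56.3% and all promoters 13 and 56.3%. GGGCGG was in 478 of the 691 (69.2%, 65.6 to 72.6), in 48.7% (45.0 to 52.4) of the promoters under shared peaks and in 46.2% of all promoters. It was in 55.4% (44.7 to 65.8) under T09-only peaks and 59.5% (47.9 to 70.4) under GW4064-only peaks. Both intervals overlapped that of GW3965-only peaks. The median number of CG dinucleotides was 14 under T09-only and 20 under GW4064-only peaks. Other short motifs stood closer together: CACGTG, the E-box of clock and Myc-family factors, was in 10.1% under GW3965-only peaks, 10.3% under shared peaks and 7.84% of all promoters, and AGGTCA, the nuclear receptor half-site, was in 15.8%, 17.3% and 14.7%. CCGGAAG, an ETS-family site, was in 15.8%, 14.8% and 11.6%. All motifs were searched on both strands, 1 promoter can hold several of them, and a match is no measure of binding.

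**Figure D1:**
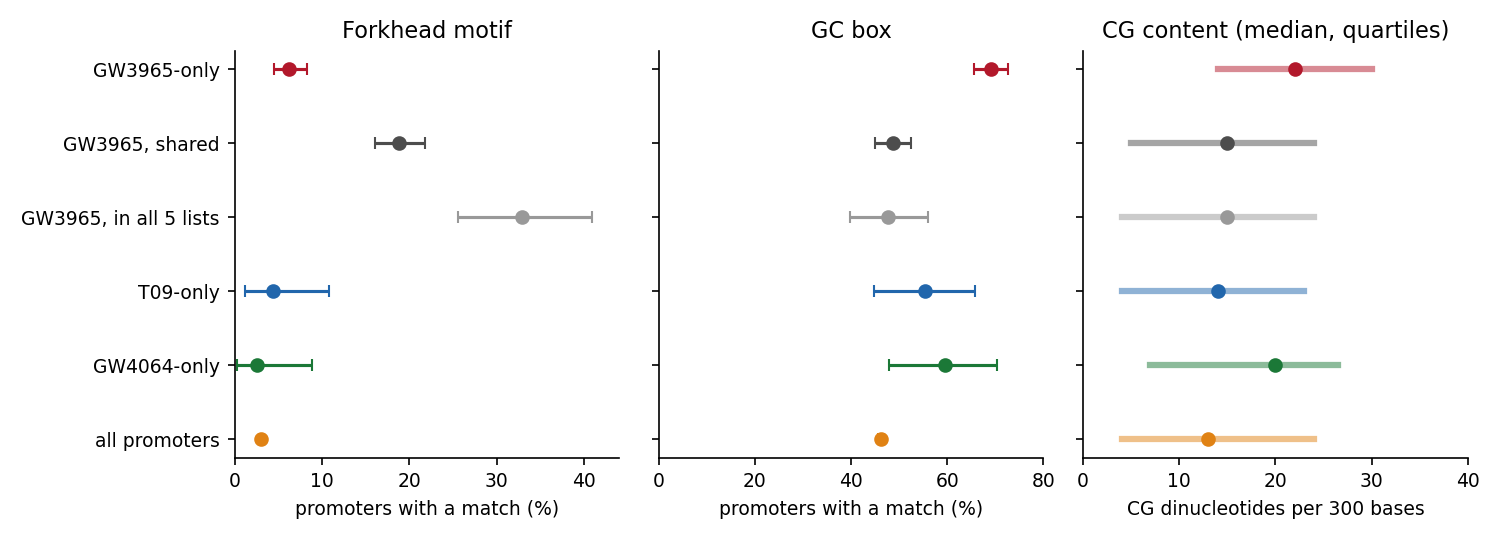
Share of promoters holding the forkhead core TGTTTAC (left) and the GC box GGGCGG (middle), with exact 95% intervals, and CG dinucleotides per 300 bases as median (point) and quartiles (line, right), for promoters touched by each class of Foxa2 peak and for all promoters. The GW3965-only class sits at 6.22% for the forkhead core and 69.2% for the GC box, and shared GW3965 peaks at 18.8% and 48.7%.

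The forkhead share was also compared among promoters of like CG content. Among promoters with 30 or more CG dinucleotides, the core was in 7 of 184 (3.80%) under GW3965-only peaks and in 28 of 106 (26.4%) under shared peaks, and in those with 20 to 29 it was in 11 of 227 (4.85%) and 38 of 170 (22.4%). The order was the same with 10 to 19, at 9 of 155 (5.81%) and 29 of 177 (16.4%), and with 5 to 9, at 3 of 63 (4.76%) and 20 of 110 (18.2%). Only in promoters with 0 to 4 CG dinucleotides was the order the other way: 13 of 62 (21.0%) under GW3965-only peaks and 22 of 166 (13.3%) under shared peaks, with 4.62% of all such promoters holding it. These counts are small, and no interval was computed for them. The place in the list moved with the class, as described next, and its part in the difference was not tested beyond 1 split. Among entries after 10000, the core was in 5.69% (4.00 to 7.83) of the promoters under GW3965-only peaks and in 10.1% (6.43 to 14.9) of those under shared peaks, and these intervals overlapped.

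GW3965-only peaks stood late in the GW3965 list. The first was entry 229, the median entry was 16283.5, and the median of the shared peaks was 7433. The first 1000 entries held 2 members and the last 1000 held 766. With the list divided into 10 equal runs of entries, members made up 0.282% (6 of 2124) of the first run and 76.9% (1634 of 2125) of the last. What the file order stands for is not given in the sources used here, and since the list carries no score, the strength of these peaks could not be set beside that of the shared ones. Peak width was smaller late in the list in both classes: the median width of members was 429 bp in the second run and 205 bp in the last, against 340 and 193 bp for shared peaks.

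**Figure D2:**
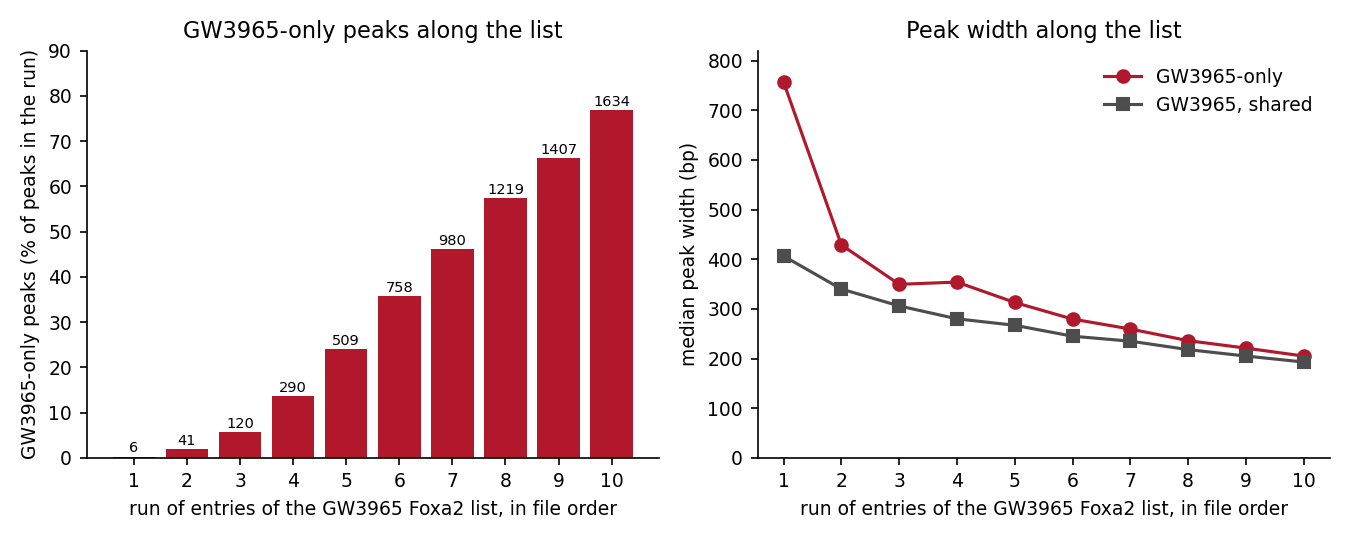
Left, share of GW3965-only peaks in each of 10 equal runs of entries of the GW3965 Foxa2 list, in file order, with the number of such peaks above each bar. Right, median width in bp of GW3965-only and shared GW3965 peaks in each run. The share goes from 0.282% to 76.9%, and the median width of members is above that of shared peaks in each run, at 205 and 193 bp in the last.

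Over the whole list members were narrower than shared peaks, while in each of the 10 runs of entries their median width was the larger. Their median was 245 bp (95% interval of the median 242 to 248), with a range of 55 to 1740 bp, 9 under 100 bp and 13 of 1000 bp or more. Shared GW3965 peaks had a median of 288 bp and those in all 5 lists 349 bp. The T09-only peaks had a median of 308 bp and the GW4064-only peaks 45 bp, and 42.9% of all GW4064 Foxa2 peaks were under 100 bp, so lists differ in how wide a called peak is.

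Most members had another Foxa2 peak in the neighbourhood. The distance to the nearest peak of another Foxa2 list had a median of 7956 bp and quartiles of 2231 and 22628 bp, with 464 members (6.66%) at 500 bp or less, 958 (13.8%) at 1000 bp or less and 3876 (55.7%) at 10000 bp or less. At the edge of the rule, the closest members lay 3 bp (chr16:95043019-95043220, nearest gene Kcnj6), 5 bp (chr17:45885598-45886161, nearest gene Vegfa) and 7 bp (chr1:182823895-182824106, in Susd4) from a peak of another list, which was the GW4064 list for the first pair and the T09 list for Susd4. Just outside it, GW3965 peaks in Slc25a26 (chr6:94601242-94601559), nearest to S1pr1 (chr3:115612221-115612459) and in Trat1 (chr16:48767511-48767805) overlapped a GW4064 peak by 1 base.

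The nearest genes of the first 10 members in file order differed in function, and 6 of the 10 members were inside a gene or within 10 kb of it. Entry 229, 319 bp wide at chr9:74791342-74791660, was 70420 bp from Onecut1, the hepatocyte factor HNF6, in a region gained with T09 and not with GW3965. Entry 2707, at chr7:46738656-46739789, was 1274 bp from the acute phase gene Saa1, over 1000 bp wide and in no gained region. Entry 1830, at chr4:105101009-105101607, was in Prkaa2, which encodes a catalytic subunit of the energy sensor AMPK, in a region gained with GW3965 at a deposited fold of 2.21. A further 6 were nearest to Ddhd1 (334491 bp away), Tmco4, Taf2, Gadd45g (305072 bp), Asap1 and Pid1 (135890 bp). Those nearest to Ddhd1 and Asap1 were in regions gained with GW3965.

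Accessibility gained with GW3965 was not used to choose these sites. In all, 1644 members lay in a gained GW3965 region, or 23.6% (22.6 to 24.6), against 25.0% of the whole GW3965 Foxa2 list, so members were near the share of the list they came from. Shared GW3965 peaks were at 25.7% (25.0 to 26.4) and those in all 5 lists at 27.6% (26.0 to 29.2). Foxa2 peaks found only with another ligand were far lower, 4.09% (3.75 to 4.46) for T09-only and 2.74% (2.44 to 3.06) for GW4064-only. By the peak centre in place of 1 base, the members were at 22.8%, the T09-only peaks at 2.83% and the GW4064-only peaks at 2.48%.

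With the other ligands the shares were lower. Regions gained with T09 held 512 members (7.35%, 6.75 to 7.99) against 6.05% of the whole GW3965 list, 5.42% (5.05 to 5.80) of shared peaks and 2.29% (2.04 to 2.57) of T09-only peaks. The members thus had a higher share in T09-gained regions than the T09-only peaks did. Regions gained with GW4064 in WT held 552 members (7.93%, 7.30 to 8.59) against 9.11% of the whole list, 9.68% of shared peaks and 2.15% of GW4064-only peaks. The lists of gained regions covered 20.2 Mb for GW3965, 14.7 Mb for T09 and 20.8 Mb for GW4064. In Foxa2-KO liver, regions gained with GW4064 held 264 members (3.79%, 3.35 to 4.27) against 3.24% of the whole list and 2.97% (2.70 to 3.26) of shared peaks. ATAC lists of the mutant with GW3965 or T09 were not analysed here, so whether the GW3965 gain at the members needs Foxa2 was not tested.

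**Figure D3:**
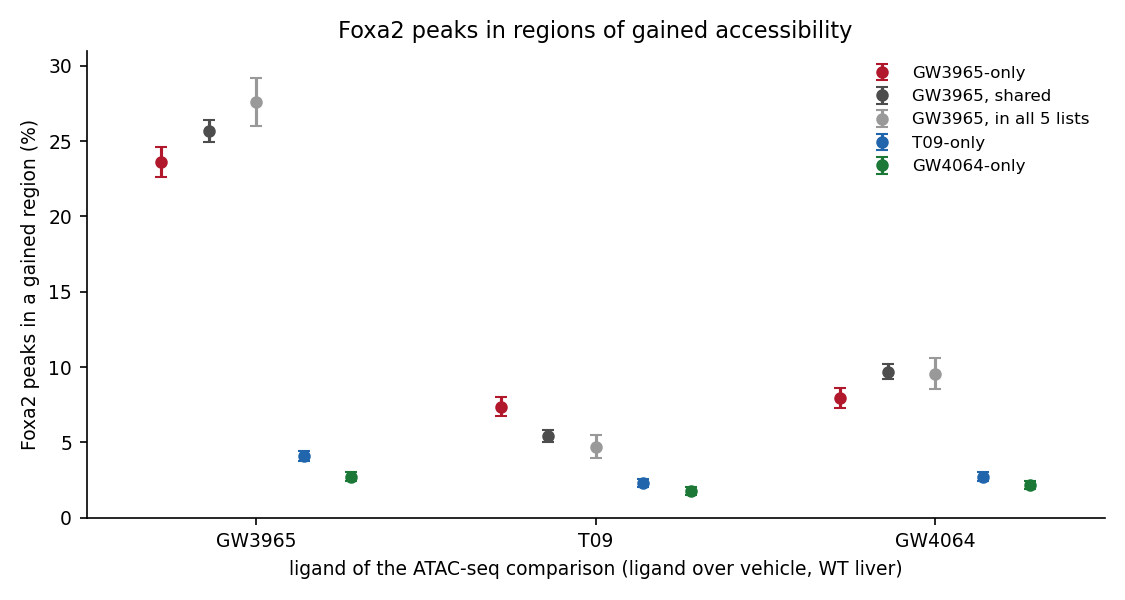
Share of Foxa2 peaks of each class, in percent, that lie in regions of accessibility gained with GW3965, T09 or GW4064 over vehicle in WT liver, with exact 95% binomial intervals as bars. All 3 classes from the GW3965 list lie at 23.6 to 27.6% with GW3965, and the T09-only and GW4064-only peaks at 4.09% and 2.74%.

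Members in a gained GW3965 region mostly lay in no region gained with T09 or GW4064, as did shared peaks. Outside gained GW3965 regions, 353 members (5.07%) were in a T09 region, against 3.70% of shared peaks. In a GW4064 region and no GW3965 region were 392 members (5.63%), against 6.34% of shared peaks. Of the 1644 members in gained GW3965 regions, 1338 (81.4%) lay in no region gained with T09 or GW4064. A T09 region also held 159 of them, a GW4064 region 160, and 13 were in all 3. Of the shared peaks in gained GW3965 regions, 81.5% were in no region gained with T09 or GW4064. A further 4599 members (66.0%) were in none of the 3 WT lists, against 64.6% of shared peaks. The regions that held a member numbered 1578 of the 62838 gained with GW3965, and 1406 of them held no other GW3965 Foxa2 peak. These regions were wide, with a median of 1011 bp and a deposited fold of 1.44, close to the 969 bp and 1.42 of regions that held a shared GW3965 peak, where all gained GW3965 regions had medians of 126 bp and 3.38. Of the first 100 regions in the gained GW3965 list, 22 held a member, against 2.51% of all gained GW3965 regions. Those 100 regions had a median width of 3788 bp, against 126 bp for all, and the part of width in this count was not tested. The count for shared peaks is not given here.

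Along the list, the share of members in gained GW3965 regions went from 23 of 41 (56.1%) in the second run of entries to 281 of 1634 (17.2%) in the last, and that of shared peaks from 27.6% to 19.3%. Among the first 10000 entries, 270 of 799 members (33.8%) were in a gained region, against 27.7% of shared peaks. After entry 10000 the 2 classes stood at 22.3% and 22.0%. Members late in the list, which make up most of them, thus stood at a share like that of shared peaks of like position.

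The 10 members in gained regions of the highest deposited fold were mostly in narrow regions, of under 300 bp in 9 of 10 cases. The highest, 6.09, was in a region of 60 bp under the member at chr10:98937790-98938004 in Atp2b1, a plasma membrane calcium pump, followed by 5.95 over 50 bp at chr3:90389279-90389429 in Slc27a3, an acyl-CoA synthetase, and 5.55 over 39 bp near Tle1, a Groucho corepressor. The fourth was 5.39 over 5370 bp at Scd1, described with the LXR targets. The others were nearest to Olfr1424, N4bp1 (236195 bp away), Atxn1, 1110059E24Rik, Spop and Pappa2. They were in regions of 84 to 286 bp with folds of 4.55 to 4.98.

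Members lay closer to starts than other Foxa2 peaks. Of the 6732 on chromosomes with starts in the table, 916 (13.6%, 12.8 to 14.4) were within 1 kb of a start and 406 (6.03%) lay over one. Shared GW3965 peaks were within 1 kb in 8.43% (7.97 to 8.90) of cases, those in all 5 lists in 7.32% (6.42 to 8.31), T09-only peaks in 2.02% (1.77 to 2.29) and GW4064-only peaks in 2.78% (2.47 to 3.11). The median distance was 26026.5 bp for members, 31472 bp for shared, 79075 bp for T09-only and 74915 bp for GW4064-only peaks. Genes without an entry in the table make all these distances upper limits. The difference from shared peaks was as large late in the list: after entry 10000, 13.8% (12.9 to 14.7) of members and 7.90% (7.16 to 8.69) of shared peaks were within 1 kb.

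**Figure D4:**
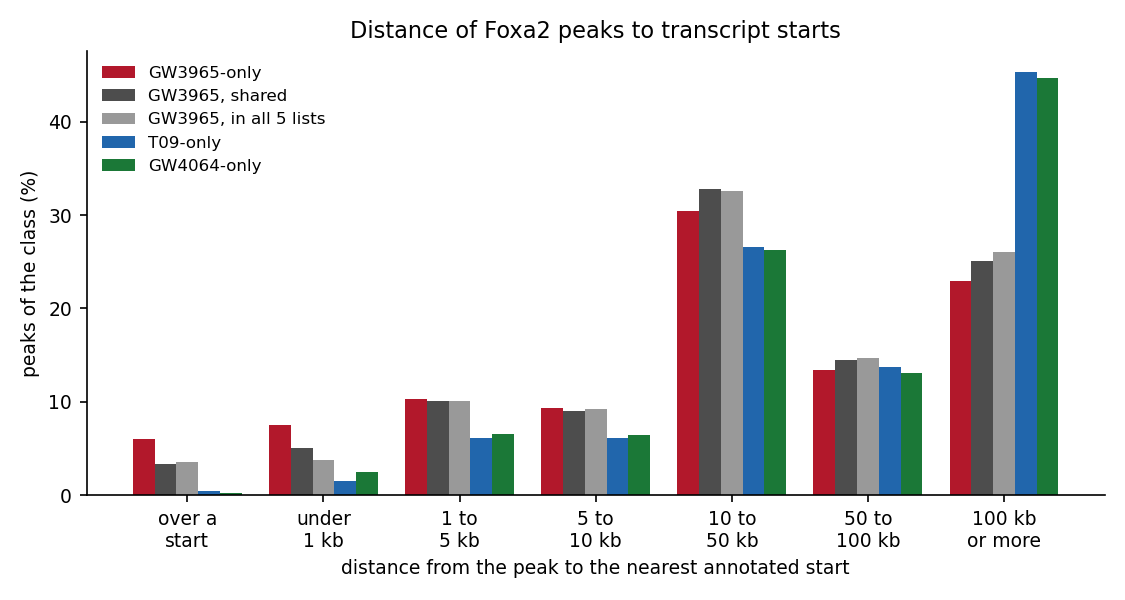
Percent of the peaks of each class by distance to the nearest start of a protein-coding gene in the RefSeq promoter table. GW3965-only peaks lie over a start in 6.03% of cases and shared GW3965 peaks in 3.31%, while T09-only and GW4064-only peaks have their highest bar at 100 kb or more.

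Gain of accessibility was also compared by nearness to a start. Of the 916 within 1 kb of a start, 25.8% (23.0 to 28.7) were in a gained GW3965 region, and of the 5816 beyond, 23.6% (22.5 to 24.7). The T09-only peaks were at 19.2% (14.4 to 24.8) within 1 kb and 3.89% (3.55 to 4.26) beyond. The centre of a member was inside a protein-coding gene in 55.5% of cases (54.3 to 56.7), near the 55.1% of shared peaks and above the 43.7% of T09-only and 44.4% of GW4064-only peaks.

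Receptor binding rarely coincided with the members. The LXR list of WT liver with GW overlapped 22 of them, or 0.316% (0.198 to 0.478), against 0.475% of the whole GW3965 Foxa2 list, 0.553% (0.438 to 0.689) of shared peaks and 1.19% (0.837 to 1.63) of peaks in all 5 lists. T09-only peaks were at 0.767% (0.621 to 0.937) and GW4064-only peaks at 0.467% (0.348 to 0.613), so the members had the lowest share of these classes. The interval of members overlapped those of GW4064-only and of shared peaks. By the peak centre the share was 0.0862% for members, 0.336% for shared, 0.275% for T09-only and 0.192% for GW4064-only peaks. The LXR peaks had a median width of 39 bp. Of the 22, 5 also met an LXR peak of Foxa2-KO liver in any of its lists, with GW, T09 or vehicle, and 5 lay in a gained GW3965 region. The Foxa2-KO LXR lists came from 3 samples a group and the WT lists from 1. Their labels give the Foxa2-KO lists a looser threshold, so the 2 genotypes are not compared on like terms. The first by file order were at chr4:121023981-121024549, 6976 bp from Smap2, at chr2:90579650-90579967 in Ptprj, a receptor tyrosine phosphatase, and at chr19:44248141-44248460 in Pkd2l1, a cation channel, and the last 2 of these were in regions gained with GW3965 at folds of 1.16 and 2.12. The other 7 of the first 10 were nearest to Sulf1, Vmn1r238, C1ql2, Tmem171, Gm38538, Yap1 and Arhgap42, and those by Sulf1 and Vmn1r238 met LXR peaks of both genotypes and at least 1 PPAR peak.

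FXR peaks met more of the members than LXR peaks did, in a list of 22705 peaks against 14219. The FXR list of WT liver with GW4064 overlapped 137 members (1.97%, 1.65 to 2.32) against 2.59% of the whole list, 2.90% (2.63 to 3.19) of shared peaks, 0.929% of T09-only and 0.394% of GW4064-only peaks. The FXR list with vehicle overlapped 48 (0.689%) against 1.15% of the whole list, and 44 members met both. Of the 137, 41 (29.9%) were in regions gained with GW3965 and 23 (16.8%) in regions gained with GW4064. PPAR peaks of WT liver with GW3965 or with T09 met no member, where 0 of 6964 allows a share of up to 0.0530% by the exact interval. These WT PPAR lists were short, at 110 and 373 peaks. The longer WT PPAR lists, with vehicle and with GW4064, met 4 and 3 members (0.0574% and 0.0431%), against 0.325% and 0.240% of the whole list. The Foxa2-KO PPAR lists met 5 to 12 members. Peaks of FXR, LXR and PPAR alike met 2 members (0.0287%), against 49 of the shared peaks (0.343%).

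Genes near the members were numerous. Of 21887 protein-coding genes, 4496 (20.5%) contained or lay up to 10 kb from the centre of a GW3965-only peak, and this percent is the background for the gene lists below. One peak was found at 3240 of them, 2 at 816 and 3 or more at 440, while 1857 members (26.7%) had no gene within 10 kb. Another Foxa2 list had a peak at 3502 of the 4496 genes (77.9%), against 51.3% of all genes, so 994 genes had a GW3965-only peak and no other. Genes with a member were longer, at a median of 32940.5 bp against 14535 bp for those without.

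Long genes held the most members. Zbtb20, a zinc-finger repressor of hepatocytes that spans 758704 bp, had 11, beside 18 shared GW3965 peaks. Zmiz1, a coactivator, had 8. Mical3, Slc22a23, Sik3 (a kinase of the salt-inducible family), Arid5b, 2900026A02Rik and Arhgap26 had 7 each and Gabbr2 had 6. Each of these genes also had at least 1 vehicle peak.

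LXR targets had members at 21 of 32 genes (65.6%, 46.8 to 81.4), and their 36 distinct peaks lay in a gained GW3965 region in 14 cases (38.9%), against 23.6% of all members. Scd1, the stearoyl-CoA desaturase, had 2. One at chr19:44406925-44407189 (entry 13209) was inside the gene, in a gained GW3965 region of 5418 bp with a fold of 3.15. The other at chr19:44394189-44394470 (entry 16121) lay 120 bp outside the gene, in a region of 5370 bp with a fold of 5.39, which was the first entry of the gained GW3965 list. The Scd1 locus had 3 shared GW3965 peaks and no peak in the vehicle list, with 1 in the GW4064 vehicle list, 4 in the T09 list and 1 in the GW4064 list. Fasn, the fatty acid synthase, had 1 at chr11:120817421-120817686 (entry 7604), inside the gene and in a gained GW3965 region of 9418 bp with a fold of 1.26.

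Most other lipid synthesis members lay outside gained GW3965 regions. Acacb, which makes the malonyl-CoA that restrains fatty acid oxidation, had 4, the earliest at chr5:114156621-114157133 (entry 4774), none of them in a gained GW3965 region. Elovl5, a fatty acid elongase, had 4, of which the one over its promoter at chr9:77917175-77917355 was in a gained GW3965 region with a fold of 1.16. Acaca, the other acetyl-CoA carboxylase, had 2, and Me1 (malic enzyme), Fads1 (a desaturase), Pnpla3 (a lipid droplet lipase), Mlxipl (the glucose-responsive factor ChREBP) and Insig2 (a brake on SREBP processing) had 1 each, none in a gained GW3965 region. The one counted for Pnpla3 lay inside the neighbour Samm50.

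Cholesterol efflux and phospholipid genes were also reached. Abcg5 and Abcg8, the paired sterol exporters, shared a member at chr17:84690219-84690665, and another near Abcg5, at chr17:84650329-84650871 inside the neighbour Dync2li1, was in a gained GW3965 region with a fold of 3.21. Abca1, the exporter of cholesterol to HDL, had 3, of which that at chr4:53118624-53118977 was in a gained GW3965 region with a fold of 1.56. Lpcat3, the phospholipid-remodelling acyltransferase, had 4, of which 3 inside the gene were in gained GW3965 regions with folds of 1.13 to 1.45 and the one over its promoter was in none. Apoe, Apoc1 and Apoc2, a cluster of lipoprotein genes, shared a member at chr7:19686609-19686814 in a gained GW3965 region with a fold of 1.84, and each had 2 in all, every one in a gained GW3965 region. Nr1h3, which encodes LXR alpha, had 2, one of them over its promoter, and neither was in a gained GW3965 region. Each of the 21 genes had a peak in at least 1 other Foxa2 list.

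Bile acid genes had members at 19 of 30 (63.3%, 43.9 to 80.1), with 43 distinct peaks. Of these 11 (25.6%) were in gained GW3965 regions, a share like that of the whole list, and 10 (23.3%) were in regions gained with T09, against 7.35% of all members. Cyp7a1, the rate-limiting enzyme of bile acid synthesis, had 1 at chr4:6262335-6262591 (entry 19824), 3149 bp from the gene and in a gained GW3965 region of 1481 bp with a fold of 1.53. Cyp7b1, of the alternative pathway, had 3 and Cyp8b1, the sterol 12-alpha-hydroxylase, had 2, of which 1 at Cyp7b1 was in a gained GW3965 region. Cyp2c70, which makes muricholic acids, had 2 with 1 in a gained GW3965 region, and Akr1d1, the steroid 5-beta-reductase, had 2 with none, though 1 of these was in a region gained with GW4064.

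Among transporters, Abcc2 had 5 members, 2 of them in gained GW3965 regions, and the promoter sequence shown above lay under the first, at chr19:43781963-43782383 (entry 10851), in none. Slc10a1, the uptake carrier NTCP, had 3, Slco1b2 had 2 and Slco1a1 had 1, all outside gained GW3965 regions. Abcb4, the phospholipid floppase, and Abcc3, a basolateral pump, had 1 each in a gained GW3965 region. Atp8b1, a canalicular flippase, had 3, and that at chr18:64660857-64661423 (entry 9991) met an FXR peak with GW4064 and with vehicle and an LXR peak of Foxa2-KO liver with T09. Nr1h4, which encodes FXR, had 4 outside gained GW3965 regions, and Klb, the FGF15 co-receptor, had 3 with 1 in a gained GW3965 region. Baat and Scp2 had 3 each, Slc27a2 had 2, and Acox2 and Amacr had 1 each, all of them genes of side-chain oxidation or conjugation. The one by Acox2, at chr14:8267882-8268139, was in a gained GW3965 region of 190 bp with a fold of 4.10. Scp2 and Slc27a2 each had 1 in a gained GW3965 region, with folds of 1.07 and 1.19, and Baat and Amacr had none. All members at Scp2 were in regions gained with T09.

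Hepatocyte identity genes had members at 18 of 27 (66.7%). The fibrinogen gene Fga and the urea cycle gene Cps1 had 4 each, and the fibrinogen gene Fgg and the transcription factors Hnf4a and Onecut1 had 3 each, none in a gained GW3965 region. All 3 at Onecut1 were in regions gained with T09. The G6pc promoter lay under the member at chr11:101367401-101367764 (entry 8096). Over the whole list 5 of 30 distinct peaks (16.7%) were in gained GW3965 regions, against 23.6% of all members.

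Fatty acid oxidation genes had members at 21 of 34 (61.8%), and their 38 distinct peaks were in gained GW3965 regions in 15 cases (39.5%), against 23.6% of all members. Acsl1, the acyl-CoA synthetase that activates fatty acids, accounted for 6 of the 15: all 6 of its members, from chr8:46470582-46470741 to chr8:46521524-46521725, were in gained GW3965 regions of 2650 to 4860 bp with folds of 1.35 to 2.80. Acsl1 also had 3 shared GW3965 peaks, with 4 peaks in the T09 list, 3 in the GW4064 list, 1 in the GW4064 vehicle list and none in the vehicle list, and 4 of the 6 members were also in regions gained with T09. Ppargc1a, the coactivator PGC-1 alpha, had 3 with 2 in gained GW3965 regions, and Hadhb, Acaa1a and Cpt1a, enzymes of mitochondrial and peroxisomal oxidation, had 3 each with none, while 2 of the 3 at Cpt1a were in regions gained with T09. Ppara had 2, of which the one shown above, at chr15:85735161-85736100 (entry 6897), was in no gained GW3965 region.

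Gluconeogenesis genes had members at 11 of 16 (68.8%) with 3 of 22 peaks (13.6%) in gained GW3965 regions, against 23.6% of all members. Pcx, pyruvate carboxylase, had 5 and Fbp1, fructose bisphosphatase, had 4, none in a gained GW3965 region and 1 of those at Fbp1 in a region gained with T09, and Gpt2 and G6pc had 2 each and Igfbp1 had 1, also none. Insulin and glucose signalling genes had members at 11 of 19 (57.9%), with 8 of 23 peaks (34.8%) in gained GW3965 regions. Pygl, the liver glycogen phosphorylase, had 6, all in gained GW3965 regions of 1239 to 3737 bp with folds of 1.25 to 1.76, and this gene had 1 shared GW3965 peak, 1 peak in the T09 list, 1 in the GW4064 list and none in either vehicle list. Igf1, the growth hormone effector, had 5, all in regions gained with T09 and none in a region gained with GW3965. Pik3r1 had 3, Sik1 had 2, and Igfbp2 and Pklr had 1 each, outside gained GW3965 regions.

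Cholesterol synthesis and uptake genes had members at 11 of 22 (50.0%), with 5 of 19 peaks (26.3%) in gained GW3965 regions. Scarb1, the HDL receptor, had 4, with 2 in gained GW3965 regions and the others in regions gained with GW4064, Lrp1 had 3 with none, and Cyp51, a sterol demethylase, had 2 with 1. Mvd, of the mevalonate pathway, and Srebf2, the factor that drives it, had 2 each, in both cases with 1 over the promoter and none in a gained GW3965 region. Scap had 1. No peak of any other Foxa2 list lay within 10 kb of Mvd.

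Nuclear receptors and cofactors had members at 16 of 29 (55.2%), with 13 of 43 peaks (30.2%) in gained GW3965 regions. Rxra, which encodes the partner of LXR and FXR, had 4, at chr2:27682214-27682502 (entry 6971), chr2:27758384-27758620, chr2:27676052-27676531 and chr2:27675391-27675593, and no peak of any other Foxa2 list and no shared GW3965 peak lay within 10 kb. None was in a gained GW3965 region and 1 was in a T09-gained region. Thrb, a thyroid hormone receptor, had 5 with 2 in gained GW3965 regions, and Rora and Nr3c1, the glucocorticoid receptor, had 3 each with 1 and 2.

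Circadian clock genes had members at 14 of 18 (77.8%, 52.4 to 93.6), with 6 of 25 peaks (24.0%) in gained GW3965 regions. Dbp, an output factor of the clock, had 2, at chr7:45704939-45705247 over its promoter and at chr7:45713860-45714108, both in the same gained GW3965 region of 13691 bp with a fold of 1.16 and also in regions gained with T09. Nfil3 and Tef, which bind the same sites as Dbp, had 3 each with none in a gained GW3965 region, Rora had 3, and Nr1d2 and Per2 had 2 each with 1. Acute phase genes had members at 11 of 18 (61.1%) with 1 of 16 peaks (6.25%) in a gained GW3965 region, against 23.6% of all members. Saa1 and Saa2, neighbouring serum amyloid genes whose near-identical sequence can make reads hard to assign, had 5 each with 3 in common, Saa4 and Socs3 had 2 each, and Il1rn and Itih4 had 1 each.

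Markers of other liver cells were counted in the same way. None of 12 Kupffer cell markers and none of 12 stellate cell markers had one (exact interval 0 to 26.5% for each), and 2 of 12 cholangiocyte markers (16.7%) did, among them Muc1. The intervals of all these lists held the 20.5% of all genes. Sinusoidal endothelial markers had members at 5 of 12 (41.7%, 15.2 to 72.3): Pecam1 with 2, and Oit3, Gata4, Stab2 and Lyve1 with 1 each. These lists count peaks near genes in whole liver and do not say in which cell Foxa2 was bound.

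**Figure D5:**
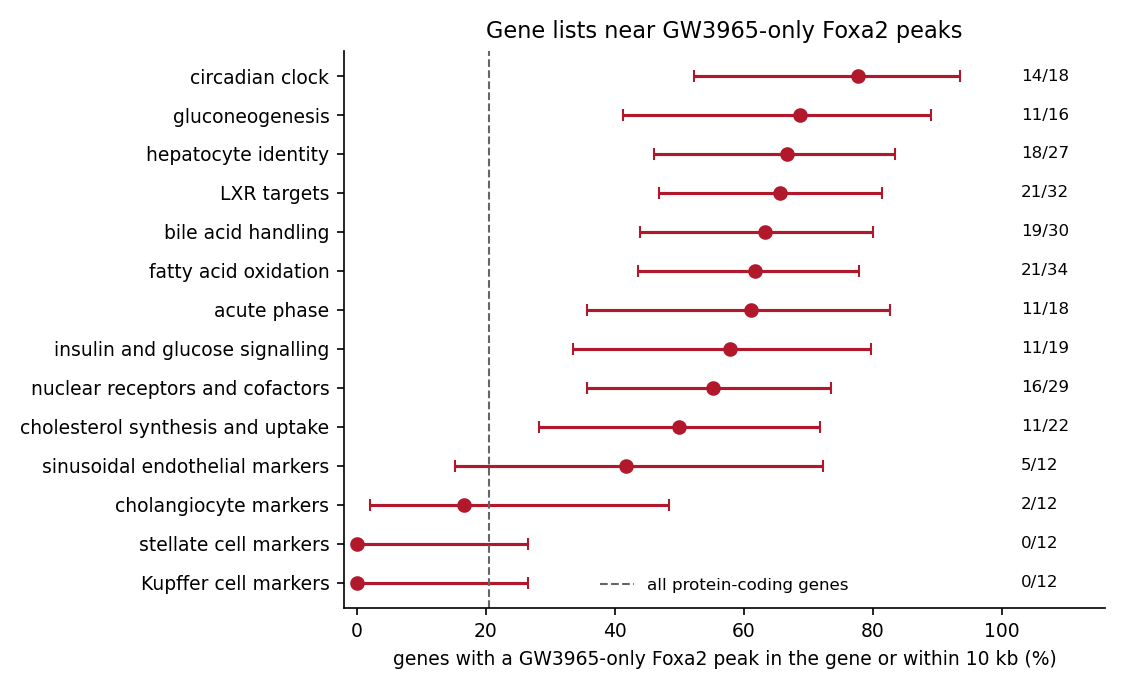
Percent of the genes of each list that contain, or lie up to 10 kb from, the centre of a GW3965-only peak, with exact 95% binomial intervals over genes and the counts at the right. The dashed line is the 20.5% of all protein-coding genes; 10 metabolic and regulatory lists lie at 50.0 to 77.8%, and Kupffer and stellate cell markers at 0.

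The list counts are descriptions. The shares of list peaks in gained GW3965 regions rest on 16 to 43 peaks in each metabolic or regulatory list. They carry no interval, and their difference from the 23.6% of all members was not tested. The same share for shared GW3965 peaks at the listed genes is not given here. The listed genes also had other Foxa2 peaks: of the 32 LXR targets, 27 had some GW3965 Foxa2 peak, 24 a T09 peak and 14 a vehicle peak. Of the 30 bile acid genes 27, 28 and 20 did. The shares of all genes with a peak of each of these lists are not given here, so these counts have no background. Of all genes, 51.3% had a peak of some Foxa2 list other than that of GW3965. Neighbouring genes share peaks, and the lists share genes. A member counted for a listed gene can lie inside another gene. Examples are that of Amacr in C1qtnf3, some of Baat in Acnat1 and Mrpl50, some of Hadhb in Hadha and 1 of Acaa1a in Xylb. Among the listed genes whose own promoter a member touched were Nr1h3, Lpcat3, Elovl5, Apoc2, Abcc2, Apoa1, Fga, G6pc, Ppara, Fbp1, Igfbp1, Srebf2, Mvd, Dbp, Nfil3, Saa1, Saa2 and Socs3. Of all listed promoters touched, that of Cry1, a clock repressor, held TGTTTAC. No list had more than 4 such promoters, too few to set beside the 6.22% of all promoters under members or the 3.01% of all promoters.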

How the data were processed

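The series holds 27 deposited lists of regions from mouse liver, 5 of them of Foxa2 ChIP-seq. Reads were mapped with BWA to mm10 per the submitters' processing notes, and peaks were called with PeakSeq against input, or for ATAC-seq in ligand over vehicle, per the series' design text. Versions and thresholds of the Foxa2 calls are not given in the sources used here, and a list joins all replicates of its group. The authors deposited start and end positions, with a fold of ligand over vehicle as a ratio in the ATAC-seq lists used here for fold. The q-value deposited by the authors in the WT LXR list with GW ran up to 0.05 and was not used as a filter. Read depth is unknown, since the lists hold no counts.

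From these lists GW3965-only peaks were found by overlap of 1 base or more, and their overlap with other lists, distance to RefSeq starts and genes (GRCm38.p6, the build of mm10), and promoter motifs were computed with python 3.11.15, numpy 2.4.6, pandas 2.3.3 and scipy 1.17.1. The scripts were tested on simulated data. Coordinates are 1-based. Promoters of chromosome 18 were not used here, and 35401 blank entries of the FXR Foxa2-KO lists were dropped. Samples were grouped by their labels, and with 1 list per group no test over samples was made.

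The members and gene lists were chosen with earlier results of these data known. Genes named were the nearest genes of the first 10 members, all LXR target and bile acid genes with a member within 10 kb, up to 6 genes with the most members in each other list, the 10 genes with most members, the 10 members in gained GW3965 regions of highest fold, 10 members on an LXR peak, and up to 8 genes with a covered promoter, from which those shown were taken. Some genes that this rule names are not reported here. Alternatives were a 500 bp widening of the other peaks, fewer lists in the rule, the first 10000 entries, peaks of 100 bp or more, peak centres, windows of 5 and 50 kb, and leaving out peaks on FXR, LXR and PPAR alike.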

Additional observations from a re-analysis of the deposited data

How the results depend on the processing

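Of 69 alternative values for 11 results, 50 moved by less than the exact interval or, for counts, less than 1.5 times, and 19 moved by more. The number of GW3965-only peaks was 6501 with the other peaks widened by 500 bp and 8821 when only the vehicle and T09 lists had to lack the site. Most of the moved values came from keeping the first 10000 entries, which left 799 members. Their share in regions gained with GW3965 was 33.8%, with T09 12.8% and with GW4064 6.63%, their median width was 340 bp, 12.1% lay within 1 kb of a start, 10.5% of the promoters under them held TGTTTAC, and they reached 3.02% of all genes, 3 LXR targets and 5 bile acid genes. In the entries after 10000, an alternative chosen after seeing the data, the shares were 22.3% with GW3965 gain, 6.65% with T09 gain and 19.0% of genes. The share of genes was 19.6% with widened peaks, 24.3% with the vehicle and T09 lists alone, 17.5% within 5 kb and 39.0% within 50 kb. Overlap with LXR by peak centre was 0.0862%, and TGTTTAC was in 2.90% of promoters wholly covered, also chosen after seeing the data. The cause of these shifts was not tested beyond the smaller number of peaks or the other window that each alternative sets. No paired analysis was possible because each group gave 1 list of regions, with no value per replicate. The lists carry no depth or score, so a site lacking in a list can be one that was not detectable there, and no replicate or left-out sample could be examined.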
